A study of Mus musculus with 12 samples.

Results

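The TRP (transient receptor potential) channel genes of sensory neurons were examined in trigeminal ganglia of mice that had or had not responded to the neuropeptide PACAP. The group consists of 9 genes chosen by symbol, Trpv1, Trpv2, Trpv4, Trpa1, Trpm2, Trpm3, Trpm8, Trpc1 and Trpc5, out of 51341 Ensembl genes in the deposited table, and each symbol matched 1 row. Responders (6 mice) and nonresponders (6 mice) were all CD1, an outbred stock, and each group held 3 males and 3 females. All came from whole dissected ganglia, 1 library per mouse, sequenced after poly A selection. The labels do not state the age of the mice, how a response was scored or when PACAP was last given. No group without PACAP was described, so the levels before exposure are not analysed here. The study's title concerns light aversion, a migraine-like behaviour, after PACAP.

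TRP channels are cation channels of the cell membrane, each built from a set of subunits around a central pore. In trigeminal and other sensory neurons several of them are the molecular sensors of temperature and irritants, and their opening depolarises the nerve ending. Trpv1 encodes the capsaicin and noxious heat receptor of nociceptors, Trpa1 the receptor for mustard oil and other reactive irritants, and Trpm8 the receptor for menthol and cool temperatures. In rodents Trpa1 is found mostly in a subset of Trpv1 neurons, while Trpm8 marks a largely separate class of cold-sensing neurons.

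The libraries had total values between 286388 and 358590 FPKM (fragments assigned to a gene, divided by its length and by the library's size). The table gives no read counts; the repeated smallest value of single-exon genes implied 17300000 to 38600000 fragments per mouse, with responder 1 lowest and nonresponder 4 highest in this estimate. The estimate is rough, since only 20.8% to 30.5% of the values it was checked on lay near a whole multiple of 1 fragment, against 10% by chance. Both of these libraries stood apart in their markers. Summed FPKM of 7 pituitary markers had a median of 2440 in responders and 358 in nonresponders, and reached 77609 in responder 1. Summed FPKM of 6 neutrophil markers had a median of 21.5 in responders and 177 in nonresponders, and reached 3804 in nonresponder 4. Summed FPKM of 12 neuron markers was between 2675 (responder 1) and 5565 in responders and between 3002 (nonresponder 4) and 4589 in nonresponders, so both libraries also lay lowest in their group for neuron RNA. In whole ganglia, fewer neurons of a type and less RNA per neuron cannot be told apart. The first number in each sample's description is 44, 45, 48 or 49 in responders and 68, 82 or 83 in nonresponders, and its meaning is not given, so this number and the response cannot be told apart. Each number holds mice of 1 sex only. Males carry 44 or 48 among responders and 82 among nonresponders, and females 45 or 49 and 68 or 83. Sex and this number therefore cannot be told apart in either group.

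The promoter table held 8 of the 9 members, all but Trpa1. Those of Trpm8 and Trpc5, which differed most in mean level between the groups, are shown with those of Trpv1 and Trpc1. Mean Trpv1 was 1.03 times and mean Trpc1 1.11 times as high in responders as in nonresponders. For Trpm2 and Trpm3, not shown, the fold was 0.991 and 1.08. The promoters are RefSeq sequences of GRCm38.p6, 300 bases each, from 250 bases before to 50 bases after the annotated start, 5′ to 3′ on the gene's strand. Capitals mark a cAMP response element half-site (TGACG, or CGTCA for the other strand) or a RUNX site (TGTGGT, or ACCACA for the other strand); matches of one do not overlap matches of the other in these windows. PACAP receptors raise cAMP, and in mice the transcription factor Runx1 is required for the expression of several TRP channels in nociceptors.
Trpm8 (chr1:88306485-88306784, plus strand): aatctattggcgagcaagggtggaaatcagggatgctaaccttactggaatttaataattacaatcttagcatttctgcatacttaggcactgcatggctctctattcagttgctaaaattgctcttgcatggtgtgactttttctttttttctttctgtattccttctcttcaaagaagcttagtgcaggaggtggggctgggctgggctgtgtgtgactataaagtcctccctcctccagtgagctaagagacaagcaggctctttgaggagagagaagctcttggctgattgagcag
Trpc5 (chrX:144688131-144688430, minus strand): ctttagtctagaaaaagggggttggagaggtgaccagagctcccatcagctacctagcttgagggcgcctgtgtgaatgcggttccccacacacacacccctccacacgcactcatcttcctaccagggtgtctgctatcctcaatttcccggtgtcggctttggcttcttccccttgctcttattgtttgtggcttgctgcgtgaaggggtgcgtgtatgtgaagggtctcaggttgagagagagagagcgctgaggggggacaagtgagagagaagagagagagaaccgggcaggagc
Trpv1 (chr11:73233899-73234198, plus strand): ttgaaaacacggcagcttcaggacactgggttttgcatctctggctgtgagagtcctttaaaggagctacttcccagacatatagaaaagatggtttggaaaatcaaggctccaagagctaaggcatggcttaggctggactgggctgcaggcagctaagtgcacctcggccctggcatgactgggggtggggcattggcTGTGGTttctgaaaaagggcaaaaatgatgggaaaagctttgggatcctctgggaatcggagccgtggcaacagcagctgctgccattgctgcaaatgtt
Trpc1 (chr9:95750299-95750598, minus strand): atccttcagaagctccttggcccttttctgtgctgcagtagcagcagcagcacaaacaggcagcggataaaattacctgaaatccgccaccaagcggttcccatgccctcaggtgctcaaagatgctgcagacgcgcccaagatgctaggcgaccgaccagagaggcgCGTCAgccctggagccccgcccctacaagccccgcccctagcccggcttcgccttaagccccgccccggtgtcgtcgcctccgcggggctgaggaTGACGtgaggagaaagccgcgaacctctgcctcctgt
Of all 32851 RefSeq promoters of this length, 20.8% held the cAMP half-site and 16.8% the RUNX site, on either strand. The Trpm8 and Trpc5 windows held neither, the Trpv1 window held 1 RUNX site, and the Trpc1 window held 2 cAMP half-sites. Of the members not shown, the Trpm2 window held 1 cAMP half-site and the Trpv4 window neither site. Trpv2 and Trpm3 have more than 1 window each, some with 1 RUNX site and some with neither site. The Trpm8 window lies inside the longer Trpm8 gene model of GENCODE, which starts upstream at position 88277661. A match describes the letters only, and its absence says nothing about any factor.

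By GENCODE M21 coordinates (GRCm38), Trpm8 (ENSMUSG00000036251) is at chr1:88277661-88389293 on the plus strand, with 31 exon blocks, and Trpa1 (ENSMUSG00000032769) on the same chromosome at chr1:14872648-14918862 on the minus strand, with 27. Trpv1 (ENSMUSG00000005952, chr11:73234292-73261242, plus strand, 16 exon blocks) and Trpv2 (ENSMUSG00000018507, chr11:62574486-62600515, plus strand) share chromosome 11. Trpc5 (ENSMUSG00000041710) is X-linked, at chrX:144381671-144688180 on the minus strand. FPKM values cover all exons of a gene model, coding and untranslated alike.

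Across all mice the 9 transcripts spanned a wide range of levels. Trpv2, a channel of large sensory neurons and of macrophages, averaged 17.6 ± 4.76 FPKM (SD, n = 12), Trpv1 13.3 ± 2.80 and Trpa1 10.3 ± 3.02. Trpc1, a broadly expressed subunit, averaged 8.48 ± 0.908 FPKM, and Trpm2, a channel opened by oxidative stress and ADP-ribose that immune cells also carry, 5.09 ± 1.24. Trpm8 averaged 4.48 ± 2.26 and Trpm3, a heat-sensing channel that the steroid pregnenolone sulfate opens, 2.79 ± 0.740 FPKM. Trpv4, a channel sensitive to osmotic swelling, averaged 0.762 ± 0.147 and Trpc5, a cold-sensitive channel, 0.627 ± 0.327 FPKM. In this order, the ranges of neighbours overlapped except between Trpm3 and Trpv4, where Trpm3 was higher in 12 of 12 mice. The order was least settled between Trpm2 and Trpm8, with Trpm2 higher in 7 of 12 mice. The coefficient of variation over mice was 52.1% for Trpc5, 50.4% for Trpm8 and between 10.7% (Trpc1) and 29.4% (Trpa1) for the other members. The exon length of the gene models ran from 3681 bases (Trpv1) to 24437 bases (Trpm3), so a level per kilobase depends on how much of a long model is used.

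**Figure D1:**
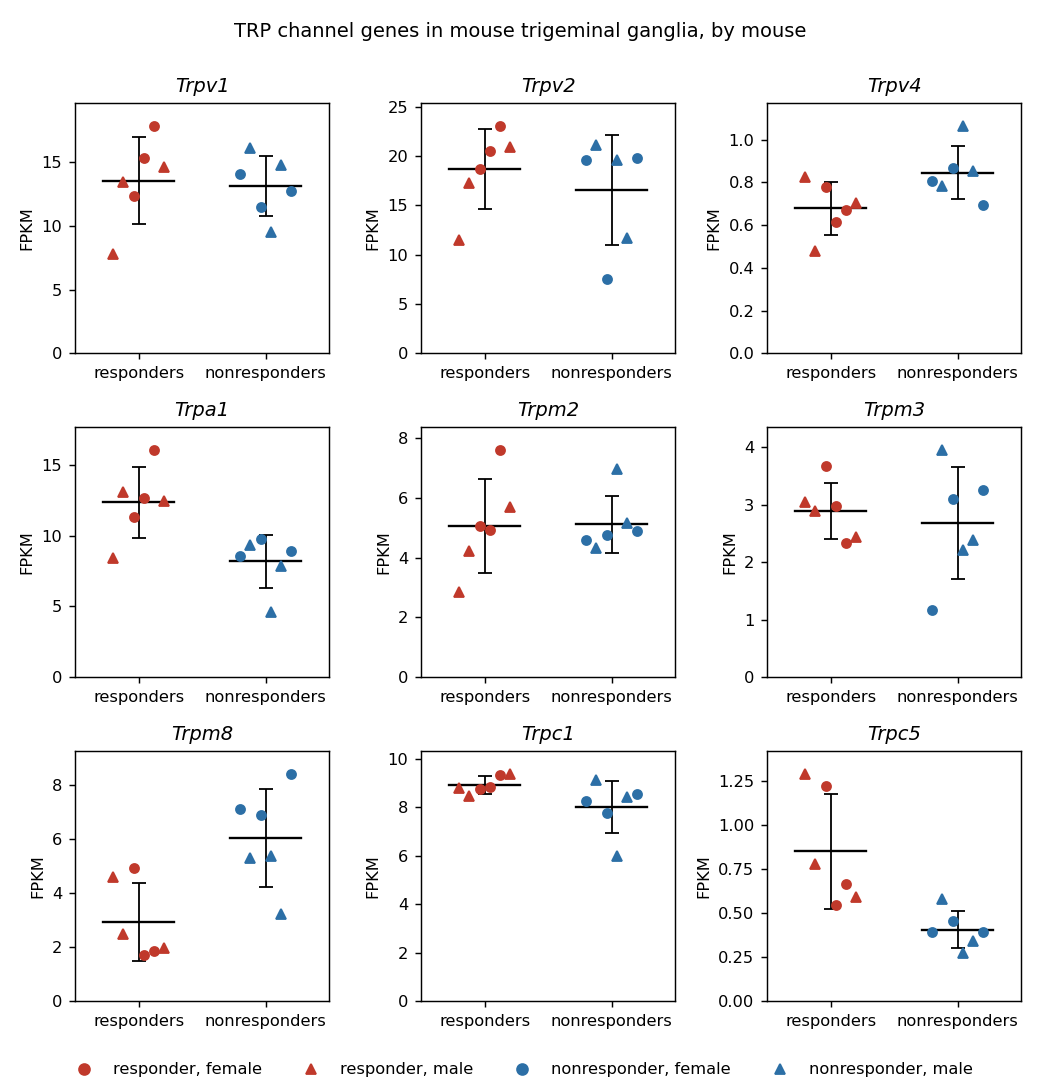
FPKM (y axis, from 0) of the 9 TRP channel genes in each mouse, responders on the left and nonresponders on the right; circles are females, triangles males, the horizontal line is the mean and the bar 1 SD (n = 6 per group). Trpm8 lay lowest in responders 4, 5 and 6, Trpa1 exceeded every nonresponder in 5 of 6 responders, and Trpv1, Trpv2, Trpm2 and Trpm3 overlapped broadly.

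Whether the channels differ with the PACAP response was asked by comparing responders with nonresponders. The clearest pair of differences ran in opposite directions: mean Trpa1 was 1.51 times as high in responders as in nonresponders, and mean Trpm8 0.484 times as high. Trpc5, at low levels, was 2.10 times as high in responders. Trpv1 and Trpm2 means were nearly equal. None of these differences passed the test over all genes: by limma on log2(FPKM + 1), 0 of the 7 members that passed the filter on low values (at least 1 FPKM in at least 3 mice) had a Benjamini-Hochberg adjusted p under 0.05, against 0.0211% of all 14203 genes tested. At an unadjusted p under 0.05 there were 2 of the 7 members, 1 higher and 1 lower, or 28.6%, against 7.4% of all genes. The members, and the gene lists below, were chosen with earlier results of these data known. Such shares are therefore not independent tests. The median log2 fold change of the 7 members was 0.12, with 5 higher and 2 lower, and that of all genes tested was 0.003.

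Trpa1 spanned 8.42 to 16.1 FPKM (median 12.5) across responders and 4.62 to 9.78 (median 8.75) across nonresponders. Responders 2 to 6 lay above every nonresponder, and responder 1 lay at 8.42, inside the nonresponder range; nonresponder 4 was the lowest mouse. The means were 12.3 ± 2.49 FPKM among responders and 8.18 ± 1.87 among nonresponders (SD, n = 6 each). The log2 fold change was 0.55 (SE 0.16, 95% confidence interval 0.20 to 0.90), with a limma adjusted p of 0.482 and an unadjusted p of 0.0056. Of all genes tested, 1.27% had at least 5 responders above every nonresponder.

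Trpm8 spanned 1.73 to 4.92 FPKM (median 2.21) across responders and 3.22 to 8.42 (median 6.12) across nonresponders. Responders 2, 4, 5 and 6 lay below every nonresponder, and responders 1 and 3, at 4.60 and 4.92 FPKM, lay above nonresponder 5 at 3.22. The means were 2.92 ± 1.45 FPKM among responders and 6.04 ± 1.81 among nonresponders (SD, n = 6 each). The log2 fold change was -0.88 (SE 0.24, 95% confidence interval -1.41 to -0.34), with a limma adjusted p of 0.445 and an unadjusted p of 0.00408. Of all genes tested, 4.28% had at least 4 responders below every nonresponder. An antisense gene, 4930453O03Rik, shares 388 bases, 8.20% of the Trpm8 exon length, and was listed at no more than 0.0589 FPKM.

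By the numbers in the descriptions, the Trpm8 values of the nonresponders were 5.29, 5.36 and 3.22 FPKM under number 82 (replicates 2, 4 and 5), 7.10 and 8.42 under 83 and 6.87 under 68. In responders they were 4.60 and 2.47 under 48, 4.92 and 1.73 under 49, 1.87 under 45 and 1.96 under 44. Both responder pairs that share a number thus held 1 higher and 1 lower mouse. With mice averaged by this number, which leaves 7 values, the log2 fold change was -0.99 for Trpm8 and 0.56 for Trpa1, with limma adjusted p of 0.605 and 0.602.

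Trpc5 failed the filter, with 2 of 12 mice at 1 FPKM or more, both responders. It spanned 0.548 to 1.29 FPKM (median 0.722) across responders and 0.274 to 0.577 (median 0.391) across nonresponders. Only responder 4, at 0.548 FPKM, lay under the highest nonresponder, replicate 2. Added to the genes tested after its values were seen, Trpc5 had a log2 fold change of 0.38 (SE 0.12, 95% confidence interval 0.12 to 0.64; limma adjusted p = 0.509, unadjusted p = 0.00737). The scale of log2(FPKM + 1) understates the change of a gene this low, and with a pseudocount of 0.1 the log2 fold change was 0.87 (adjusted p = 0.449). Among the 35438 genes above 0 in any mouse, 0.824% had at least 5 responders above every nonresponder. With no filter on low values 0 of the 9 members were called, against 0.00847% of those genes. The highest Trpc5 values, 1.29 and 1.22 FPKM, were those of responders 1 and 3, which also held the highest Trpm8 values of the responders. The 3 mice with the most Trpc5, responders 1, 3 and 2 (0.779 FPKM), also had the 3 highest pituitary marker scores, as mean log2(FPKM + 1) of 7 markers: 10.4, 5.84 and 7.31, against at most 4.52 in any other mouse. The part of pituitary RNA in the Trpc5 difference was not tested.

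Trpv4 also failed the filter, with 1 of 12 mice at 1 FPKM or more. It spanned 0.479 to 0.825 FPKM across responders and 0.695 to 1.07 across nonresponders. The groups overlapped, with 3 responders under the lowest nonresponder. Its log2 fold change, when added to the genes tested, was -0.14 (95% confidence interval -0.31 to 0.03; limma adjusted p = 0.727).

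**Figure D2:**
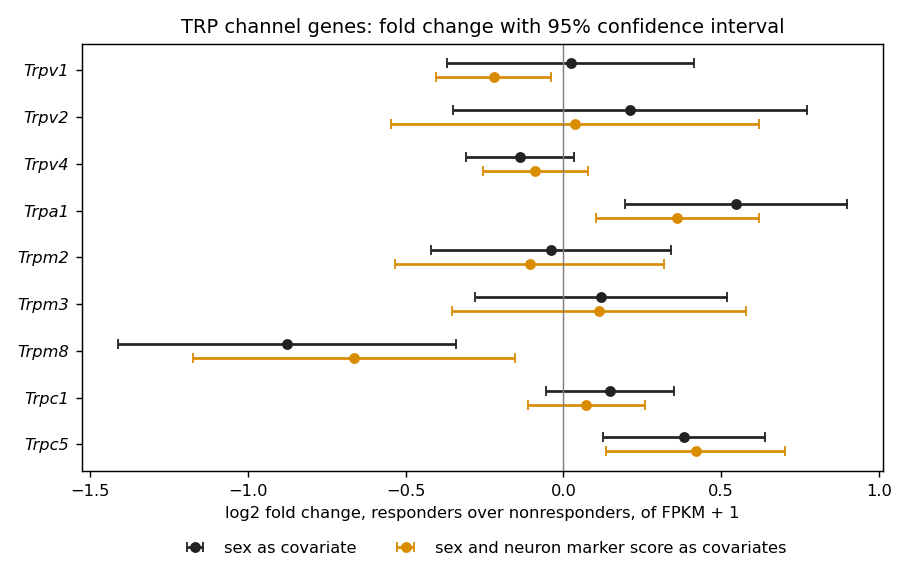
Log2 fold change of FPKM + 1, responders over nonresponders (x axis), for each TRP channel gene (y axis), with 95% confidence intervals; black is the fit with sex as covariate, orange the fit with the neuron marker score as a further covariate. Intervals lay clear of 0 for Trpa1, Trpm8 and Trpc5 in both fits, and for Trpv1 in the fit with the neuron score, before adjustment over all genes; none of the 9 passed after it, and Trpv4 and Trpc5 were under the filter on low values and come from fits to which they were added.

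The heat receptor Trpv1 showed no such separation. It spanned 7.78 to 17.8 FPKM (median 14.0) across responders and 9.52 to 16.1 (median 13.4) across nonresponders. Both the lowest and the highest mouse, replicates 1 and 5, were responders. The log2 fold change was 0.02 (95% confidence interval -0.37 to 0.42; limma adjusted p = 0.980). Trpv2 spanned 11.5 to 23.1 FPKM (median 19.6) across responders and 7.58 to 21.1 (median 19.6) across nonresponders. Nonresponders 3 and 5, at 7.58 and 11.7 FPKM, and responder 1, at 11.5, lay well below the other mice. Its log2 fold change was 0.21 (95% confidence interval -0.35 to 0.77; limma adjusted p = 0.859).

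Trpm2 and Trpm3 also overlapped between the groups. Trpm2 spanned 2.86 to 7.61 FPKM (median 4.99) across responders and 4.31 to 6.97 (median 4.82) across nonresponders (log2 fold change -0.04, 95% confidence interval -0.42 to 0.34, limma adjusted p = 0.966). The highest nonresponder for Trpm2 was replicate 4, the library with the most neutrophil RNA; the part of that RNA in its Trpm2 value was not tested. Trpm3 spanned 2.33 to 3.68 FPKM (median 2.94) across responders and 1.18 to 3.96 (median 2.74) across nonresponders (log2 fold change 0.12, 95% confidence interval -0.28 to 0.52, limma adjusted p = 0.890). Nonresponder 1 held the lowest Trpm3 value of all mice, at 1.18 FPKM. The opposite-strand genes Gm27151 and C330002G04Rik, at most 1.55 and 0.119 FPKM, share 1.13% and 1.44% of the Trpm3 exon length. Trpc1 was the steadiest member, from 8.48 to 9.40 FPKM with a median of 8.82 in responders, and from 5.99 to 9.11 with a median of 8.36 in nonresponders. Its log2 fold change was 0.15 (95% confidence interval -0.06 to 0.35; limma adjusted p = 0.744), and the lowest mouse was nonresponder 4.

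Because a ratio of 2 transcripts within a mouse does not change with the scaling of its library, the channels were also compared as ratios of FPKM. The Trpa1 to Trpm8 ratio was 1.83, 5.30, 2.30, 7.32, 8.60 and 6.36 in responders 1 to 6, and 1.21, 1.76, 1.42, 0.860, 2.44 and 1.06 in nonresponders 1 to 6. Responders 2, 4, 5 and 6 lay above every nonresponder, while responders 1 and 3 lay below nonresponder 5. The median was 5.83 in responders and 1.32 in nonresponders. On the log2 scale, with 0.1 added to both values, the ratio averaged 2.14 ± 0.90 in responders and 0.45 ± 0.53 in nonresponders (SD, n = 6 each), a difference of 1.69 or 3.23-fold. Enumerating all 924 ways to split the mice, a 2-sided exact permutation test gave p = 0.00866, where the smallest possible is 0.00216. This ratio was named with earlier results of these data known, so its p is not that of an independent test.

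**Figure D3:**
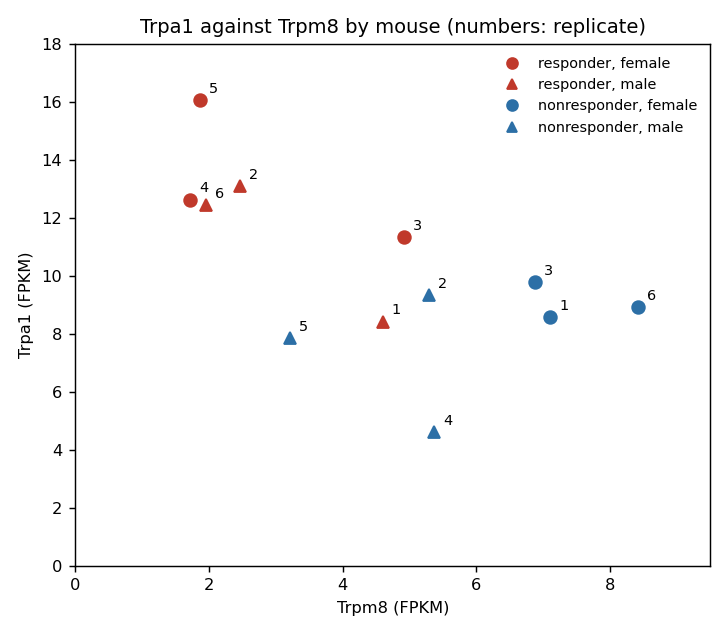
Trpa1 (y axis, FPKM) against Trpm8 (x axis, FPKM) in each mouse, with replicate numbers; red marks responders, blue nonresponders, circles females and triangles males. Responders 2, 4, 5 and 6 sit at the upper left, with Trpa1 of at least 12.4 and Trpm8 of at most 2.47, while responders 1 and 3 have Trpa1 of 8.42 and 11.3 and Trpm8 of 4.60 and 4.92.

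In all, 21 ratios of the 7 members that passed the filter were compared. By exact permutation, 5 had a p under 0.05 after Benjamini-Hochberg adjustment over the 21 ratios, and 8 before it. The 5 were Trpa1 to Trpm8, Trpv1 to Trpa1, Trpa1 to Trpm2, Trpm8 to Trpm3 and Trpm8 to Trpc1, each with an adjusted p of 0.0455; every one holds Trpa1 or Trpm8, and ratios that share a member are not independent. With splits made within each sex, all 5 adjusted values were 0.0525, so that no ratio passed. Since the members were chosen with earlier results of these data known, none of the ratio p is that of an independent test. The Trpv1 to Trpa1 ratio spanned 0.924 to 1.21 across responders and 1.17 to 2.06 across nonresponders. It thus lay lower in 5 of 6 responders than in any nonresponder, with a log2 difference of -0.58 (exact permutation p = 0.00433). The Trpa1 to Trpm2 ratio spanned 2.11 to 3.11 across responders and 0.662 to 2.16 across nonresponders (log2 difference 0.65, exact permutation p = 0.00433). Its difference was 0.41 without nonresponder 4 (adjusted exact permutation p = 0.0727), and 0.36 without responder 1 and nonresponder 4 (adjusted p = 0.0417).

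The Trpm8 to Trpm3 ratio spanned 0.579 to 1.51 across responders and 1.34 to 6.04 across nonresponders (log2 difference -1.27, exact permutation p = 0.0108). The Trpm8 to Trpc1 ratio spanned 0.195 to 0.562 across responders and 0.381 to 0.984 across nonresponders (log2 difference -1.26, exact permutation p = 0.00866). The 2 remaining ratios chosen for description did not pass after adjustment. Trpv1 to Trpm8 spanned 1.69 to 9.56 across responders and 1.51 to 4.59 across nonresponders (log2 difference 1.11, exact permutation p = 0.0476, adjusted p = 0.125). In this ratio 4 of 6 responders lay above every nonresponder, as many as in the Trpa1 to Trpm8 ratio. Trpm3 to Trpv1 spanned 0.131 to 0.392 across responders and 0.0837 to 0.27 across nonresponders (log2 difference 0.16, exact permutation p = 0.662, adjusted p = 0.818). Between 0 and 9 of the 21 ratios passed when 1 mouse was left out, which also lowers the number of possible splits, with 9 without responder 1 and 0 without responder 2, 3, 4, 5 or 6 or nonresponder 4. On the log2 scale, the Trpa1 to Trpm8 difference then lay between 1.51 and 1.95, Trpm8 to Trpm3 between -1.42 and -1.01, Trpm8 to Trpc1 between -1.44 and -1.14, and Trpv1 to Trpa1 between -0.67 and -0.51. The adjusted p of the last 3 reached 0.0818, 0.0818 and 0.0795. Where 0 ratios passed, Trpa1 to Trpm8 did not pass after adjustment either.

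**Figure D4:**
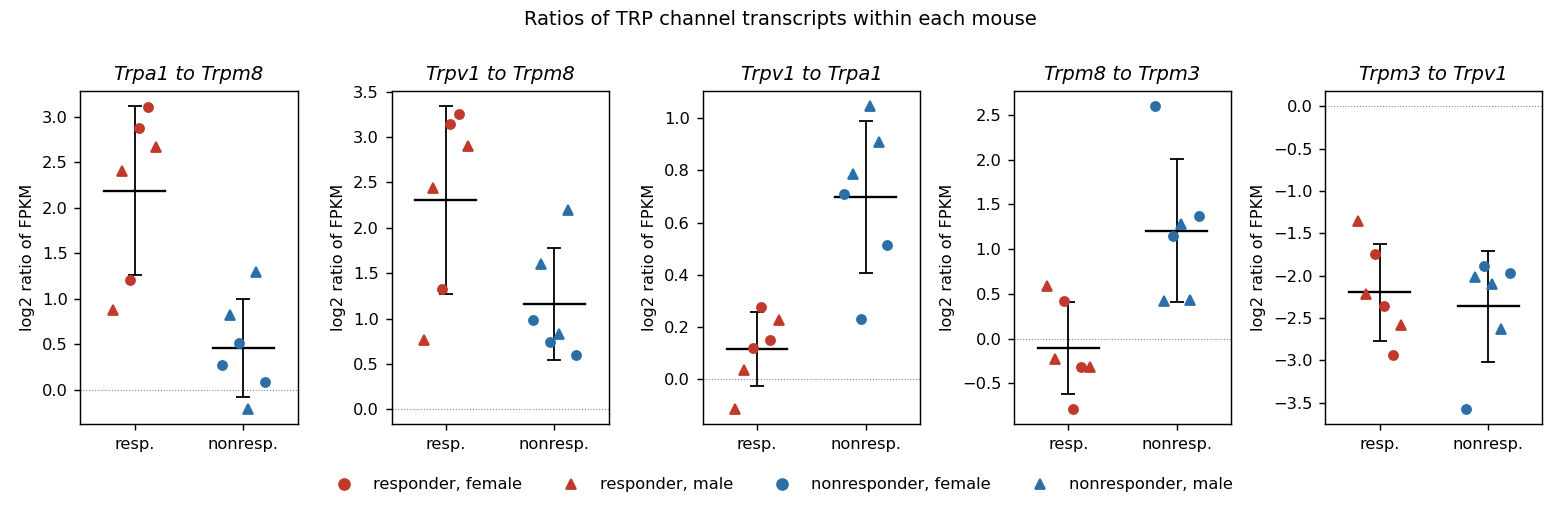
Log2 ratio of FPKM within each mouse (y axis) for the 5 ratios chosen for description, responders on the left and nonresponders on the right of each panel; circles are females, triangles males, the line is the mean and the bar 1 SD (n = 6 per group). The Trpa1 to Trpm8 panel shows 4 of 6 responders above every nonresponder, and the Trpm3 to Trpv1 panel shows overlapping groups.

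The differences were also read within each sex. Trpm8 averaged 2.84 ± 1.81 FPKM in female responders and 7.46 ± 0.833 in female nonresponders (SD, n = 3 each), a log2 fold change of -1.23 (limma adjusted p = 0.584). In males it averaged 3.01 ± 1.40 FPKM among responders and 4.62 ± 1.22 among nonresponders, a log2 fold change of -0.52 (adjusted p = 0.739). The difference between the sexes in this fold change was -0.71 (SE 0.46) and did not pass the test of the interaction (limma adjusted p = 0.836). Trpa1 averaged 13.3 ± 2.44 FPKM in female responders and 9.09 ± 0.612 in female nonresponders, and 11.3 ± 2.53 in male responders and 7.27 ± 2.41 in male nonresponders. Its log2 fold changes of 0.50 in females and 0.60 in males had an interaction of -0.10 (limma adjusted p = 0.956). Over all genes, 0 of 14203 passed the interaction (0%). Among the 7 members tested, 0 had an unadjusted p under 0.05, against 5.01% of all genes (2.39% with a higher and 2.62% with a lower fold change in females).

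Females and males were compared with the response group as a covariate. None of the 7 members passed (0, against 0.0563% of all genes), and none reached an unadjusted p under 0.05, against 4.53% of all genes (2.01% higher and 2.51% lower in females). Trpa1 averaged 11.2 ± 2.82 FPKM in females and 9.30 ± 3.13 in males (SD, n = 6 each; log2 fold change 0.28, limma adjusted p = 0.864). Trpm8 averaged 5.15 ± 2.83 FPKM in females and 3.82 ± 1.47 in males (log2 fold change 0.25, limma adjusted p = 0.864).

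How the members went with the amount of neuron RNA was described with a score, the mean log2(FPKM + 1) of 12 neuron markers such as Uchl1, Tubb3 and Snap25. The score was 6.63 ± 0.24 in responders and 6.45 ± 0.22 in nonresponders (SD, n = 6 each). Over the 12 mice, Trpv1 had Pearson's r = 0.89 with the score (permutation p = 0.00017, adjusted over the 9 members 0.00153) and Spearman's rho = 0.85 (permutation p = 0.00061). It was 0.94 within responders and 0.99 within nonresponders, and 0.86 without responder 5 and nonresponder 4, the 2 mice farthest from the median score. Trpa1 had r = 0.82 (permutation p = 0.00127, adjusted p = 0.00571) and rho = 0.76 (permutation p = 0.00568), with 0.97 within responders and 0.72 within nonresponders. Without the same 2 mice, which are the ends of the score's range, its r was 0.52 (adjusted p = 0.244). With only responder 5 left out its r was 0.76, and with only nonresponder 4 left out 0.71 (adjusted permutation p = 0.0279 and 0.0380). Trpc1 (r = 0.74, permutation p = 0.0042, adjusted p = 0.0126; rho = 0.67, permutation p = 0.0200) and Trpv4 (r = -0.67, permutation p = 0.0175, adjusted p = 0.0393; rho = -0.72, permutation p = 0.0107) also passed, and neither did so without those mice (r = 0.44 and -0.51).

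Trpm8 had r = -0.56 with the neuron score (permutation p = 0.0595, adjusted p = 0.107) and rho = -0.62 (permutation p = 0.0380, adjusted p = 0.0571), with -0.64 within responders and -0.15 within nonresponders. Trpv2 (r = 0.51, adjusted permutation p = 0.146), Trpm2 (r = 0.26, 0.537), Trpc5 (r = 0.14, 0.740) and Trpm3 (r = 0.07, 0.815) did not pass either. Trpm2 had r = 0.90 within responders and -0.86 within nonresponders, where nonresponder 4 had the lowest neuron score and the highest Trpm2. With the neuron score as a further covariate in the fit over all genes, the log2 fold change of responders over nonresponders was 0.36 for Trpa1 (limma adjusted p = 0.418), -0.66 for Trpm8 (0.439) and 0.42 for Trpc5 (0.399). For Trpv1 it was -0.22 in this fit (adjusted p = 0.455, unadjusted p = 0.0217), opposite in sign to the fit without the score.

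**Figure D5:**
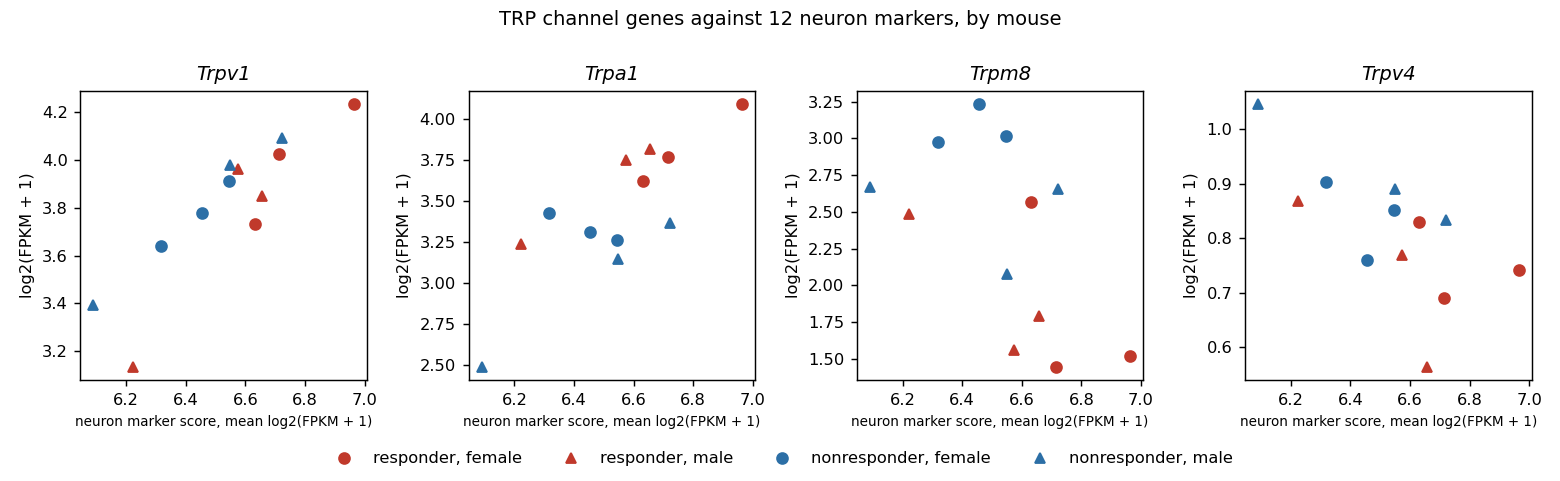
Log2(FPKM + 1) of 4 TRP channel genes (y axis) against the mean log2(FPKM + 1) of 12 neuron markers (x axis) in each mouse; red marks responders, blue nonresponders, circles females and triangles males. Trpv1 follows the score in both groups (r = 0.89 over 12 mice), Trpa1 has r = 0.82, and Trpm8 and Trpv4 run downward (r = -0.56 and -0.67).

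Genes whose levels over the 12 mice were most like a member's were found among 12565 protein-coding genes by Pearson's r of log2(FPKM + 1), as a description. For Trpv1 these were Kcnj4, an inward-rectifier potassium channel (r = 0.990), the tubulin gene Tubb2b (0.988) and Prph, the peripherin gene of peripheral neurons (0.985), which is also 1 of the neuron markers. For Trpa1 they were Txnrd1, a thioredoxin reductase (0.954), the sphingosine kinase gene Sphk2 (0.908) and the phosphodiesterase gene Pde1c (0.905). For Trpm8 they were the clock repressor gene Ciart (0.901), Erbin, a scaffold protein gene (0.875), and Cap1, an actin-binding protein gene (0.868). For Trpm3 they were the phosphatase gene Ptpn11 (0.887), the zinc finger gene Zfp2 (0.839) and the nuclear receptor gene Ppard (0.831). For Trpv4 they were Zc3h18 (0.914), the cytokine gene Flt3l (0.905) and the cyclin gene Ccnl2 (0.902). All pairs share the depth and the tissue makeup of the same 12 libraries. Each r was picked as the highest among 12565 genes with only 12 mice, and how high such a value runs by chance was not tested.

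The other 19 genes of the TRP family, listed apart from the members, were mostly low. The filter kept 7 of them, and the other 12 reached at most 1.87 FPKM in any mouse (Mcoln3); Trpv5, a calcium channel of kidney, was listed at 0 in all mice. None of the 7 tested passed limma (0 higher, 0 lower, and 0 at an unadjusted p under 0.05), with a median log2 fold change of -0.01. Trpc6 averaged 2.03 ± 0.516 FPKM among responders and 2.55 ± 0.491 among nonresponders (adjusted p = 0.728). Trpm4, a sodium-conducting channel opened by calcium, averaged 8.10 ± 2.12 and reached 12.4 FPKM in responder 1, against 6.92 ± 0.795 in nonresponders (adjusted p = 0.766). Trpm7 averaged 6.40 ± 0.714 FPKM among responders and 5.95 ± 1.39 among nonresponders, and Mcoln1, a lysosomal channel, 5.88 ± 1.73 in responders and 6.83 ± 2.45 in nonresponders (adjusted p = 0.865 and 0.888).

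Of 34 partners and upstream regulators of TRP channels, 31 were tested and 0 passed limma; 3 higher and 1 lower had an unadjusted p under 0.05, and the median log2 fold change was 0.05. Background shares at that threshold were 3.23% higher and 4.17% lower. Homer1, a synaptic scaffold that binds TRPC channels, averaged 3.81 ± 0.847 FPKM among responders and 2.87 ± 0.533 among nonresponders (adjusted p = 0.632). Prkce, a protein kinase C that sensitises TRPV1, averaged 37.5 ± 2.64 FPKM among responders and 31.2 ± 4.54 among nonresponders (adjusted p = 0.635). Cdk5, a kinase acting on TRPV1, averaged 0.946 ± 0.416 FPKM among responders and 2.41 ± 1.48 among nonresponders (adjusted p = 0.640).

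Markers of the neuron classes that carry these channels were set beside them. Of 4 cold thermoreceptor markers other than Trpm8, 0 were called and 0 had an unadjusted p under 0.05. Their log2 fold changes had a median of 0.14 and 4 of 4 were above 0, as were 50.75% of all genes tested. Foxp2, a transcription factor gene, averaged 1.71 ± 0.623 FPKM among responders and 1.33 ± 0.343 among nonresponders (limma adjusted p = 0.772). Cdh8, a cadherin gene, averaged 4.08 ± 0.700 FPKM among responders and 3.92 ± 1.14 among nonresponders, and Gpr26, an orphan receptor gene, 5.24 ± 1.22 in responders and 5.06 ± 0.873 in nonresponders. In responder 1, the library with the most pituitary RNA, Foxp2 reached 2.84 FPKM. It was at most 1.94 in the other responders and 1.69 in nonresponders. Cdh8 and Gpr26 were lowest among responders in that library, at 3.35 and 3.07 FPKM. The part of pituitary RNA in these values was not tested. Penk, which encodes the enkephalin precursor, reached 22.8 FPKM in responder 1 and 11.1 in responder 3, the pair of responders with the highest Trpm8, against 0.856 to 3.71 in the other 4 responders and at most 4.62 in any nonresponder (limma adjusted p = 0.790). In the nonpeptidergic nociceptor list 0 of 5 tested genes had an unadjusted p under 0.05 (median log2 fold change 0.01), and in the peptidergic list 0 of 6 (median -0.05). In the myelinated neuron list 1 of 7 was higher and 0 lower at that threshold (median 0.06), against 3.23% and 4.17% of all genes. In the C low-threshold mechanoreceptor list 0 of 3 tested reached it, and all 3 had a log2 fold change below 0 (median -0.08). Neither list held a gene that passed after adjustment. In the itch neuron list 2 of 5 tested genes were higher at an unadjusted p under 0.05, against 3.23% of all genes, and 0 passed after adjustment. The median log2 fold change of this list was 0.35, with 4 genes above 0 and 1 below. Il31ra, the interleukin-31 receptor gene, averaged 4.09 ± 0.715 FPKM among responders and 2.82 ± 0.641 among nonresponders (limma adjusted p = 0.445), and Htr1f, a serotonin receptor gene, 2.07 ± 0.391 in responders and 1.59 ± 0.499 in nonresponders (adjusted p = 0.647).

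Markers of several other cell types differed in level between the groups, though none passed limma after adjustment (0 in each list). Of all genes, 4.17% were lower and 3.23% higher in responders at an unadjusted limma p under 0.05. The endothelial, macrophage, neutrophil and choroid plexus lists held 0 genes at that threshold. Their median log2 fold changes were -0.19, 0.05, -1.77 and 0.22. Summed FPKM of 6 myelinating Schwann cell markers had a median of 3362 (2285 to 4405) in responders and 5007 (4212 to 6221) in nonresponders. Of these markers 4 of 6 were lower at an unadjusted p under 0.05, and 1 had a log2 fold change above 0. Summed FPKM of 6 fibroblast markers had a median of 405 (261 to 513) in responders and 997 (552 to 1608) in nonresponders. Again 4 of 6 were lower at that threshold, and 1 had a log2 fold change above 0. Summed FPKM of 5 central glia markers had a median of 116 (56.7 to 207) in responders and 245 (102 to 414) in nonresponders, with 2 of the 4 tested lower at an unadjusted p under 0.05. Summed FPKM of 5 skeletal muscle markers had a median of 42.5 (6.86 to 269) in responders and 151 (19.8 to 1051) in nonresponders. All 5 had a log2 fold change below 0, and 1 of 5 was lower at that threshold. Of 7 satellite glia markers 2 were lower and of 7 pituitary markers 6 were higher at that threshold. No defining marker of these lists was at 0 in all mice, but the central glia marker that failed the filter reached at most 0.210 FPKM. Their part in the Trpa1, Trpm8 and Trpc5 differences was not tested. Without responder 1 and nonresponder 4, the libraries that stood apart, the log2 fold change was 0.51 for Trpa1, -1.01 for Trpm8 and 0.29 for Trpc5 (limma adjusted p = 0.369, 0.427 and 0.575), with 0 of the 9 members called.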

How the data were processed

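RNA sequencing libraries of trigeminal ganglia from 12 mice were grouped by title, with sex from the characteristics. The authors deposited 1 table of gene values, taken as FPKM; its header names no unit, and the unit was inferred from the values and from StringTie 1.3.5, which the submitters' processing notes name with STAR 2.6.0a and the GRCm38 and mm10 builds. The labels name no gene model release, settings or use of read strand. Symbols and coordinates came from GENCODE M21 (GRCm38), which held 51024 of 51341 identifiers. The table gives no read counts: in single-exon genes, only 20.8% to 30.5% of products of value and length lay within 0.05 of a whole multiple of the implied fragment, against 10% by chance. No columns were identical (0 pairs) and 0 belonged to other samples. Replicates are separate mice.

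From these values log2(FPKM + 1) was computed, and limma 3.58.1 (R 4.3.3) was run on all genes for which 3 or more mice reached 1 FPKM. Sex entered each fit beside the response, leaving 9 residual degrees of freedom; tests were 2-sided and adjusted by Benjamini-Hochberg over the genes fitted. The procedure was tested on simulated data. Ratios used 0.1 as pseudocount and exact permutation, correlations 100000 permutations. The analysis plan allowed for counts; the branch for FPKM was used. The members and gene lists were chosen with earlier results of these data known. Named beside the members are, for each list described, tested genes with the smallest p (at most 4), and the 3 genes most like a member; 1 gene that this rule names is not reported here. Alternatives covered pseudocount, filter, scaling, limma options, covariates, left-out mice, averaging by description number and a replicate block.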

Additional observations from a re-analysis of the deposited data

Results flagged for a closer look

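Within the 6 mice of a group, a mouse was marked where its gap to the nearest other exceeded 0.625 of the group's range. Of 28 such groups of values (9 genes and 5 ratios in each response group), 3 held a marked mouse, where chance marks about 1 in 20. Nonresponder 4 had the lowest Trpa1 value, 4.62 FPKM, with a gap of 0.630 of the range. It also had the highest Trpm2 value of the nonresponders, 6.97 FPKM, with a gap of 0.688. This library held the lowest neuron marker score, 6.09, and the highest summed neutrophil markers, 3804 FPKM. Nonresponder 1 had a Trpm8 to Trpm3 ratio of 6.04, with a gap of 0.735; its Trpm3 value, 1.18 FPKM, was the lowest of all mice, and its Trpm8 value was 7.10 FPKM.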

How the results depend on the processing

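Under the 23 alternatives run for each member, 0 of the 9 members passed the adjusted threshold. Trpa1 kept a positive log2 fold change (0.36 to 0.62, adjusted p from 0.139 to 0.730), Trpm8 a negative one (-1.09 to -0.66, 0.171 to 0.742) and Trpc5 a positive one (0.29 to 0.87, 0.300 to 0.761). Signs of members near 0 changed: Trpv1 was -0.22 with the neuron score, and -0.051 to 0.16 with 1 mouse left out. Trpm2 was 0.056 with sample quality weights, 0.10 with mice averaged by description number, 0.16 without responder 1 and nonresponder 4, and -0.15 to 0.082 with 1 mouse left out. With 1 mouse left out, Trpv2 ran from -0.0079 to 0.34 and Trpm3 from -0.033 to 0.22. Trpc1 (0.15) was 0.073 both without nonresponder 4 and with the neuron score, and Trpv4 (-0.14) ran from -0.29 with a pseudocount of 0.1 to -0.089 with the neuron score. The cause was not tested.

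Genes called between the response groups numbered 3, against 1 with the replicate block, 1 with averaging by description number and 2 to 6 with 1 mouse left out. The response by sex called 0, against 508 with sample quality weights (whose estimation stopped before convergence) and 0 to 3 with 1 mouse left out; females against males called 8, against 5 with the replicate block. Responders and nonresponders of the same replicate number correlated between -0.27 and 0.13 in their deviations from group means. In these correlations 0 mice went best with their own replicate number, so no sign of pairing by replicate number was seen. Whether mice that share a description number are more alike was not tested. Under the block the Trpa1 to Trpm8 difference was 1.69 (exact sign-flip p = 0.0313, the smallest 6 pairs allow). Over its 17 alternatives the difference ran from 1.42 to 1.95 (exact permutation or sign-flip p from 0.00433 to 0.0313). These p are not adjusted over the ratios compared. Ratios called numbered 5, against 0 with splits within each sex, 0 with averaging by description number (7 values, where no p can be under 0.0286, so that a call needs most ratios at that floor), 8 without responder 1 and nonresponder 4, and 0 to 9 with 1 mouse left out. Trpm3 to Trpv1 was -0.11 with averaging by number and -0.075 to 0.30 with 1 mouse left out. Members that went with the neuron score numbered 4, against 1 without the 2 farthest mice and 3 to 4 with 1 mouse left out. In those correlations Trpc5 was -0.18 without the 2 farthest mice, and with 1 mouse left out Trpm2 ran from -0.085 to 0.72, Trpm3 from -0.062 to 0.20 and Trpc5 from -0.11 to 0.54. Without read counts, the counting error of low genes such as Trpc5 and Trpv4 is unknown.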
